A study of Mus musculus with 6 samples.

Results

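The comparison described here sets a heart sample of Id conditional knockout (Id cKO) mice treated with mouse recombinant IGFBP3 against a heart sample of Id cKO mice left untreated. Each sample, called a heart below, was read on 1 array, and the difference for every gene is the deposited log2 value of the treated array minus that of the untreated array. Of 19938 genes on the array, 11512 were kept because the higher of their 2 values was at least 4.7 on the log2 scale. The remaining 8426 genes lay under that floor.

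All animals were 6 months old (postnatal day 180), and 300 ng of total RNA from heart went into each labelling. The array titled Tie2Cre+ Id1F/- Id3-/- gives the genotype of the Id cKO, in which 1 Id1 allele is floxed, the other is null, and both Id3 alleles are null. The titles of the treated and untreated hearts say Id cKO without spelling out alleles. The other 4 arrays were WT, Id control 1 (Id1F/+ Id3-/-), Id control 2 (Tie2Cre+ Id1-/- Id3+/-) and the Id cKO heart just named, which was given neither IGFBP3 nor its control incubation as far as the labels say. The Tie2Cre transgene is active in endothelial cells and also in blood cells, so the floxed Id1 allele is not targeted in heart muscle, whereas Id3 is missing from every cell. The labels do not say how the protein was given, at what dose or for how long, nor how many animals stand behind each array. Hence the difference between the 2 hearts has no replicate check and no test was made. In what follows, higher and lower describe these 2 arrays.

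IGFBP3, an insulin-like growth factor binding protein, circulates in blood and sits in tissue, where it holds these growth factors away from their receptor. Id1 and Id3 lack a DNA binding region and tie up E proteins, a class of helix-loop-helix transcription factors. In vessels they are known for their part in angiogenesis. TGF-beta, a growth factor stored in the matrix in complex with latent TGF-beta binding proteins, drives collagen synthesis by cardiac fibroblasts. Immediate early genes such as Fos, Egr1 and Nr4a1 are transcribed within minutes of a stimulus through serum response factor and cAMP-responsive factors.

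At a 2-fold limit, the fold used in the design of the study, 66 genes were higher in the treated heart (0.573% of the genes kept) and 72 were lower (0.625%), together 138 or 1.20%. The split depended on the scaling of the 2 arrays: with both medians set equal 93 were higher and 47 lower, after quantile normalization 59 and 98, and after loess 64 and 98. Over all genes kept the median difference was 0.00, the standard deviation across genes was 0.40, 49.4% of genes were higher and 49.5% were lower. The treated heart was furthest above the untreated one at Akr1c14 (a difference of 1.71) and furthest below it at Sprr1a (3.37-fold), and these were the 2 genes past a 3-fold limit (0.0174%). Of the 66 higher genes 23 were under the floor in the untreated heart, Akr1c14 among them, and of the 72 lower genes 9 were under it in the treated heart. Such genes were kept through their higher value alone, and the size of their difference is uncertain. For scale, Id control 1 and Id control 2, which differ in genotype and in the date code of their labels, had 135 of 11242 genes 2-fold apart, also 1.20%, with a standard deviation of 0.32. The share of genes 2-fold apart was thus the same between those hearts, at a floor of 6 on their higher scale, while the spread over all genes was wider between the treated and untreated hearts. At 1.5-fold the treated heart had 784 genes higher (6.81%) and 732 lower (6.36%).

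The genes of the experiment itself were nearly level. Igfbp3, whose transcript is distinct from the protein that was added, was at 9.91 in the treated and 9.87 in the untreated heart, a difference of 0.04. Id1 had the same deposited value, 5.703, on both arrays, as did 127 of the genes kept in all. Id3 was at 4.13 and 3.86, under the floor on both arrays. Whether the probes lie inside the deleted exons is not stated, so these levels check the genotype only if they do. Id2, a relative of Id1 and Id3 that was not targeted, was at 7.35 in the treated and 6.65 in the untreated heart, 1.62-fold higher with IGFBP3. Heart muscle genes were high on both arrays, as the tissue label has it, with the alpha myosin heavy chain gene Myh6 at 12.58 and 12.48 and the troponin gene Tnnt2 at 12.91 and 12.74. The albumin gene of liver, Alb, was near the bottom of the scale at 2.77 and 3.12. The surfactant gene of lung, Sftpc, was there too at 3.37 and 3.52. Of 8 hepatocyte genes on the array, however, 4 passed the floor, reaching 7.61 in the treated and 7.76 in the untreated heart. Of 8 lung genes 1 passed it.

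Among the genes furthest below the untreated heart were Sprr1a, Thbs4 and Ltbp2, described here because of their place in that ranking. They do not stand for stress genes at large. Of 21 fetal and stress genes of heart muscle, 9 were higher and 12 lower (57.1%, against 49.5% of all genes kept), with a median of -0.07. Sprr1a, a small proline-rich protein induced in stressed heart muscle cells, was at 6.59 with IGFBP3 and 8.34 without. Thbs4, a thrombospondin of injured heart and tendon, was at 7.56 and 9.11, 2.92-fold lower. Ltbp2, a latent TGF-beta binding protein of the microfibrils, was at 7.27 and 8.72, 2.73-fold lower. These 3 genes were also among those 2-fold higher in the Id cKO heart than in WT. Sprr1a stood at 5.64, 5.59 and 5.38 in WT and Id controls 1 and 2 and at 7.66 in Id cKO. Thbs4 stood at 5.89, 6.14 and 6.99 in those 3 hearts and at 8.52 in Id cKO. Ltbp2 stood at 6.12, 6.15 and 6.51 and at 7.86. Within both sets of arrays, then, the higher values were those of the Id cKO heart and the untreated heart. The levels of the treated and untreated arrays cannot be read directly against the other 4, because the deposited medians were 4.45 and 4.51 for the treated and untreated arrays and 5.73 to 5.83 for the others.

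Tgfb1, which encodes the growth factor TGF-beta 1, was at 7.37 in the treated and 8.68 in the untreated heart, 2.47-fold lower. Its partners in storage were lower too: Ltbp4 was at 9.63 and 10.70, a difference of -1.08, and Ltbp3 was at 7.54 and 8.52, just inside the 2-fold limit at -0.98. Among genes known to respond to TGF-beta, values lay on both sides. Pmepa1, a membrane protein that dampens the pathway, was at 8.38 and 9.91. Smad7, its inhibitory Smad, was at 7.14 and 8.11. Snai1, the transcription factor Snail, was at 5.50 and 6.79. Skil, Bambi and Klf10, which also respond to TGF-beta, were higher with IGFBP3, by 0.35, 0.26 and 0.33, and Ccn2 differed by -0.07. These 7 response genes were picked with their values known. The wider list of TGF-beta and BMP signalling was less one-sided, with 21 of 33 genes kept lower (63.6%, against 49.5% of all genes kept). In this list 7 were lower by at least 1.5-fold (21.2%, against 6.36%) and none was higher by that much. Its median difference was -0.20, against 0.00 for all genes kept, and -0.11 between the 2 Id control hearts.

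Collagen and matrix genes were lower in the treated heart in 33 of 41 cases (80.5%, against 49.5% of all genes kept). Their median difference was -0.45. By at least 1.5-fold 9 were lower (22.0%, against 6.36% of all genes kept) and 2 higher (4.88%, against 6.81%). Col1a1, the main chain of type I collagen, was at 8.61 with IGFBP3 and 9.71 without. Loxl1, which cross-links elastin, was at 7.43 and 8.43, just inside the 2-fold limit. Of 36 collagen chain genes of all types, a set put together after values were seen, 32 were lower with a median of -0.37. Small leucine-rich proteoglycans, which coat collagen fibrils, lay on both sides. Bgn was at 11.13 with IGFBP3 and 11.64 without, and Fmod at 5.44 and 5.95. In contrast, Lum was at 8.70 with IGFBP3 and 7.85 without. Ogn was at 8.13 and 7.47, and Aspn, outside the list, was at 9.30 and 8.26, 2.06-fold higher. Dcn differed by 0.30 and Postn, the matrix protein periostin, by 0.12. Collagen chains were thus mostly lower, while 4 of the 6 leucine-rich proteoglycans named here were higher.

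**Figure D1:**
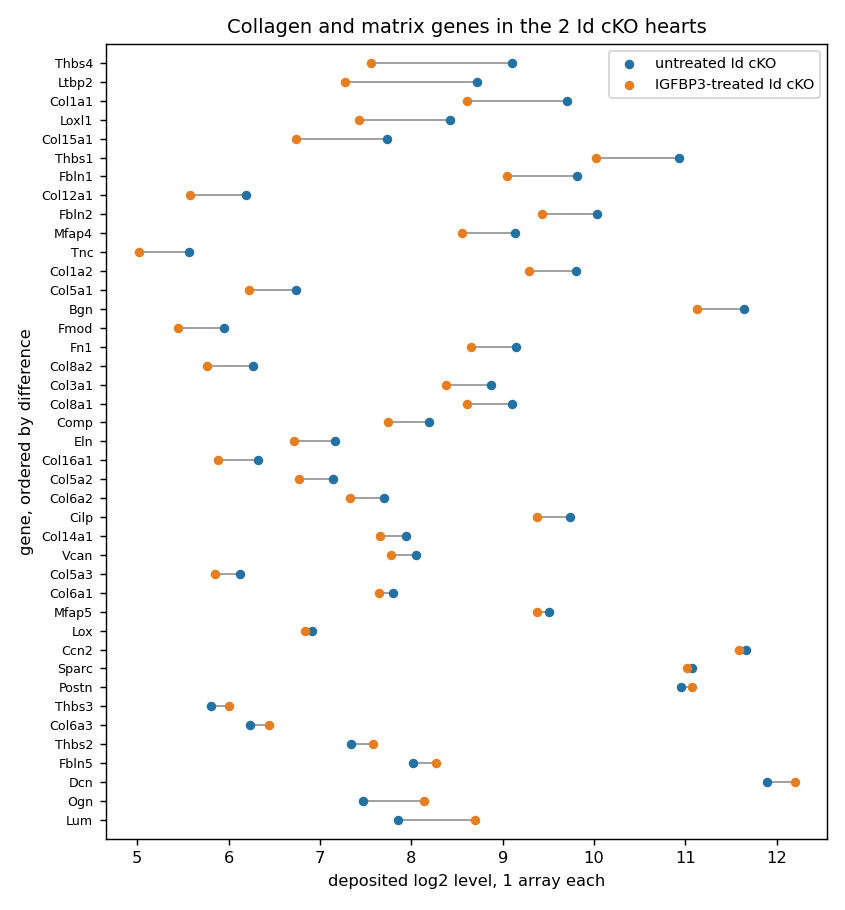
Deposited log2 levels of the 41 collagen and matrix genes kept, in the treated (orange) and untreated (blue) Id cKO hearts, 1 array each, ordered by difference. In 33 genes the orange point lies left of the blue one, most widely in Thbs4, Ltbp2 and Col1a1, and Lum and Ogn lie at the other end.

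The spread between hearts is large for this list. Between Id control 1 and Id control 2 its median difference was -0.77, larger in size than between the treated and untreated hearts. Markers of fibroblasts were evenly split, with 10 of 21 higher and 11 lower, a median of -0.03, and a sum of linear levels of 17085 in the treated and 17285 in the untreated heart. In whole hearts, fewer cells of a type and less RNA per cell cannot be told apart. Basement membrane genes, which vessels and muscle fibres share, had a median of 0.00. There the laminin gene Lamb1 was at 8.11 with IGFBP3 and 7.30 without, Lama4 differed by 0.67, and the perlecan gene Hspg2 by -0.51.

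Immediate early genes were one-sided: 35 of 39 were lower in the treated heart (89.7%, against 49.5% of all genes kept). By at least 1.5-fold 15 were lower (38.5%, against 6.36%) and none was higher. At the 2-fold limit 6 were lower, against 0.625% of all genes kept. The median difference of the list was -0.46, against 0.00 for all genes kept, while between the 2 Id control hearts it was -0.06. Fosb, an AP-1 subunit, was at 6.89 with IGFBP3 and 8.11 without. Csrnp1, a nuclear protein induced by AXIN1, was at 6.49 and 7.70. Fosl1, another AP-1 subunit, was at 4.29, under the floor, and 5.43. In each of these 3 genes the untreated heart was more than 2-fold above the treated one. Fosl1 was kept through its untreated value alone, and the size of its difference is uncertain. The orphan nuclear receptor gene Nr4a1 was at 8.70 and 9.74, the zinc finger gene Egr1 at 7.14 and 8.17, and the phosphatase gene Dusp1 at 9.80 and 10.82. Fos was less far apart, at 7.78 and 8.24, and Srf, which encodes serum response factor, was at 7.60 and 8.45. The 4 members that were higher with IGFBP3 were Jun (0.39), Klf10 (0.33), Ier3 (0.15) and Klf6 (0.05).

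**Figure D2:**
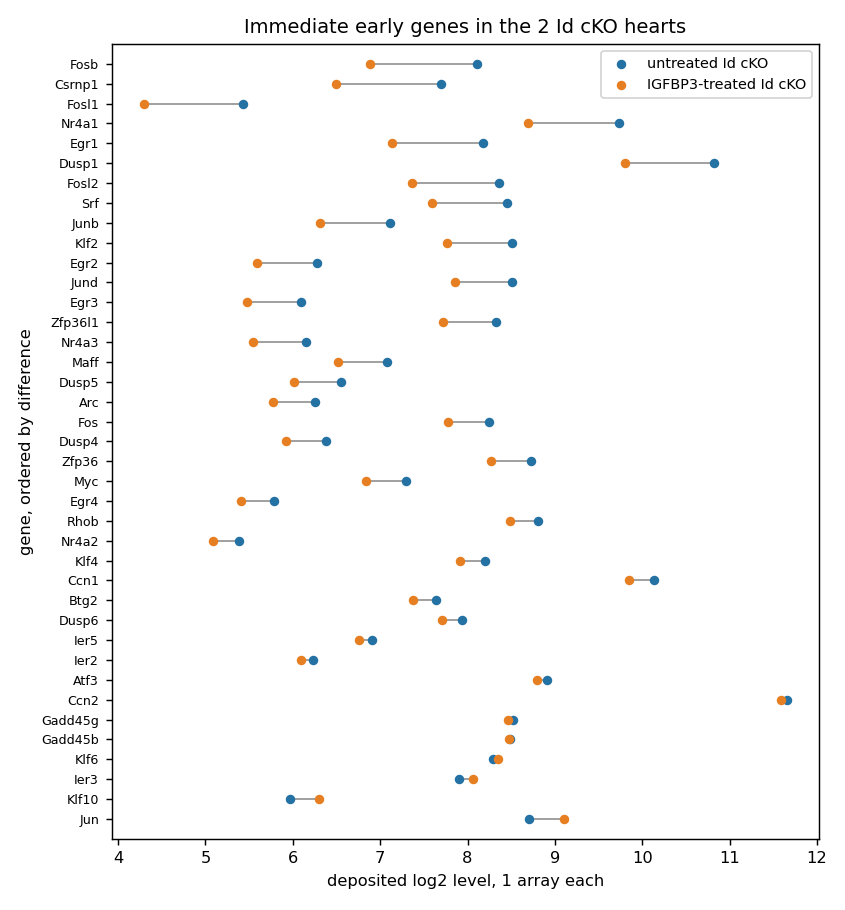
Deposited log2 levels of the 39 immediate early genes kept, in the treated (orange) and untreated (blue) Id cKO hearts, 1 array each, ordered by difference. The treated point is the lower one in 35 genes, and Jun, Klf10, Ier3 and Klf6 are the exceptions.

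Both hearts were high for Fosb, Dusp1 and Fos when the arrays were brought to a common scale. These are 3 of the 39 members. The others were not counted this way, so the list as a whole was not placed. For that purpose the values of each array were mapped by rank onto the mean distribution of the other 4 arrays. On this scale Fosb was at 8.07 in the treated and 9.37 in the untreated heart, against 5.68 to 5.97 in the other 4. Dusp1 was at 11.001 and 11.93, against 9.61 to 9.78. Fos was at 8.97 and 9.51, against 5.86 to 6.39. The lower treated value of Fosb, Dusp1 and Fos was therefore still above every heart outside the experiment. Such a position was common on this scale. Of all genes kept, 32.8% lay above all 4 in the treated heart and 37.4% in the untreated heart. The treated and untreated arrays share a date code that none of the other arrays has, and incubation and date code cannot be told apart across the 2 sets. The untreated heart lay above the other 4 at these 3 genes as well. Other differences between the treated and untreated samples were not tested.

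Promoters were searched for the elements through which immediate early genes are known to be switched on. The 250 bases before the transcription start are given 5′ to 3′ from the RefSeq promoter table for GRCm38.p6, with motif matches in capitals. Srf (minus strand, chr17:46556163-46556412) is shown for 2 CArG boxes, the element bound by serum response factor. Dusp1 (minus strand, chr17:26508473-26508722) has the cAMP response element TGACGTCA. Csrnp1, which has several starts in the table and matches before one of them (minus strand, chr9:119983024-119983273), has 2 AP-1 sites. Sprr1a (minus strand, chr3:92485882-92486131), which is no member of the list but was the gene furthest down, has 2 as well.
Srf: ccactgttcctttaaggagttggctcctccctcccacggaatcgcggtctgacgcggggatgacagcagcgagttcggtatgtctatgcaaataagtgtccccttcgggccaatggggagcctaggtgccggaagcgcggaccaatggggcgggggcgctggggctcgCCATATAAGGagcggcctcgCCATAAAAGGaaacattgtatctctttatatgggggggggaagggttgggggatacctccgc
Dusp1: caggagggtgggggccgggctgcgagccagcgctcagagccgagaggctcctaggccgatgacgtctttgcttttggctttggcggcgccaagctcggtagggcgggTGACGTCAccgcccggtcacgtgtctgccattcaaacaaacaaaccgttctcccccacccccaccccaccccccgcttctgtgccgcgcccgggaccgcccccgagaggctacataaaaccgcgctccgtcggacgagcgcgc
Csrnp1: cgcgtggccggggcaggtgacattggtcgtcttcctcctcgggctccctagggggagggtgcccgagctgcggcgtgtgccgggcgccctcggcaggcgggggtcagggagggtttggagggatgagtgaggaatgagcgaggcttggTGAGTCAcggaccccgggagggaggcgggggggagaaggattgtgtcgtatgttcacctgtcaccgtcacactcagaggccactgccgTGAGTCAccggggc
Sprr1a: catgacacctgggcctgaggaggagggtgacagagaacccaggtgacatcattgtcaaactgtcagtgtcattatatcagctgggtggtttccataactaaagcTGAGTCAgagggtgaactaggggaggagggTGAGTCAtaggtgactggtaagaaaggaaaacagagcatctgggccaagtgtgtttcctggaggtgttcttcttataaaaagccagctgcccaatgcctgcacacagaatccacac
The motifs were searched on both strands as the CArG box, TGACGTCA, and TGACTCA or TGAGTCA for AP-1, and no match overlapped another in these 4 promoters. A CArG box was present in 4 of the 30 immediate early genes that had a promoter in the table (13.3%), against 1.62% of all 27025 genes with one and 1.55% of the 9216 among the genes kept. TGACGTCA was present in 3 of the 30 (10.0%), against 1.77% of all and 3.02% of those kept. An AP-1 site was present in 1 of them, Csrnp1, and in 5.16% of all genes and 4.11% of those kept. A match describes the letters in this window and is not evidence of binding in these hearts.

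Cytokine, chemokine and NF-kB lists were on the lower side. Heat-shock genes were higher in 12 of 18 cases (66.7%, against 49.4% of all genes kept), with a median of 0.16. Oxidative stress genes were split 11 to 11 (median -0.05). Among inflammatory cytokines and their receptors, 15 of 19 genes were lower (78.9%, against 49.5% of all genes kept), with a median of -0.41. Csf2rb, the shared chain of the GM-CSF receptor, was at 3.66 with IGFBP3, under the floor, and 4.89 without. Il11 (4.34 and 5.16), Tnf (4.22 and 4.74) and Il1r2 (4.69 and 4.79) were under the floor with IGFBP3 too. Csf2rb, Il11, Tnf and Il1r2 were thus kept through their untreated values alone, which fixed their direction as lower. The cytokine gene Lif was at 5.79 and 6.70. Il6, by contrast, was at 8.62 and 8.40. Of 22 chemokine genes 16 were lower (72.7%, median -0.28). By at least 1.5-fold 8 were lower (36.4%, against 6.36% of all genes kept), among them Cxcl5 at 7.72 and 8.61. Another of them, Ccl4 (4.57 and 5.30), was kept through its untreated value alone. The chemokine gene at least 1.5-fold higher was the platelet gene Ppbp at 7.76 and 6.70, 2.09-fold higher with IGFBP3. Feedback genes of the inflammatory factor NF-kB were lower in 12 of 15 cases (80.0%, median -0.25), with Bcl3 at 5.98 and 7.07. Macrophage markers were mixed: 15 of 23 were lower (65.2%, against 49.5% of all genes kept) and 7 were higher. Their median was -0.18 and their summed linear level was 2898 against 3520. C1qa, a complement gene of macrophages, differed by -0.65 and Cd68 by -0.35. Cd163 and Mrc1 went the other way, at 0.24 and 0.20. The part of the macrophage markers in the lower cytokine and chemokine values was not tested.

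The remaining genes named as 2-fold lower share no list. Pfn1, which binds actin monomers, was at 9.12 with IGFBP3 and 10.40 without. The small GTPase gene Rhog was at 7.00 and 8.24, and the actin-associated Efhd2 at 8.35 and 9.58. Pltp, a phospholipid transfer protein, was at 7.97 and 9.42, and the plasma glutathione peroxidase gene Gpx3 at 9.82 and 10.96. Gsk3a, a kinase that acts on glycogen synthase and is inhibited by insulin signalling, was at 7.46 and 8.90, a difference of -1.44. Trib1, a pseudokinase, was at 5.67 and 6.89, and Htra3, a secreted protease, differed by -1.23. The other genes named among the 20 furthest below the untreated heart were Phpt1, Aspscr1, Ost4, Cacng7, Prr12, Reep5 and Atn1, with differences from -1.45 (Phpt1) to -1.25 (Atn1).

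On the higher side was Angpt1, the angiopoietin that keeps vessels quiescent through the receptor Tek. It was at 5.45 with IGFBP3 and 3.92 without, a difference of 1.53, and the untreated value lies under the floor. Outside the experiment, Angpt1 stood at 7.99 (WT), 8.75 (Id control 1), 8.45 (Id control 2) and 6.88 (Id cKO), so that within each set the lower value was that of the Id cKO without IGFBP3. Tek itself was at 9.01 and 8.25, 1.70-fold higher. Its relative Tie1 was at 8.81 and 9.43, lower with IGFBP3. Across 40 angiogenesis factors and receptors 20 were higher and 20 lower with a median of 0.00, so Angpt1 did not stand for its list.

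Endothelial markers were higher in the treated heart in 21 of 27 cases (77.8%, against 49.4% of all genes kept), with a median of 0.26 and a summed linear level of 17058 against 13923. Of the 27, 6 were at least 1.5-fold higher (22.2%, against 6.81% of all genes kept) and 1 lower (3.70%, against 6.36%). The fatty acid carrier of capillaries, Fabp4, was at 10.69 with IGFBP3 and 9.82 without. Rgcc was at 8.21 and 7.42. The receptor gene Kdr was at 9.16 and 8.59, the adhesion gene Cdh5 differed by 0.26 and Pecam1 by 0.12. Eng and Tie1, at -0.56 and -0.62, went the other way. Markers of veins and activated endothelium were lower in 9 of 12 cases (75.0%, against 49.5% of all genes kept), with a median of -0.27. Cav2, a caveolin, was at 7.98 and 6.81, 2.25-fold higher. The endothelial median was 0.04 between the 2 Id control hearts and 0.36 between Id cKO and WT. Platelet genes were higher in 8 of 9 cases (88.9%, against 49.4% of all genes kept) with a median of 0.35.

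Interferon response genes were higher in 19 of 25 cases (76.0%, against 49.4% of all genes kept) with a median of 0.25. Iigp1 and Usp18 (4.98 and 4.63) were kept through their treated values alone, which fixed their direction as higher. Their median between the Id control hearts was larger, at 0.41. The GTPase genes Iigp1 (5.17 and 4.19) and Gbp3 (6.55 and 5.72) and the antiviral gene Samd9l (5.98 and 4.79) were higher with IGFBP3, whereas the interferon-induced chemokine gene Cxcl10 was lower at 5.66 and 6.51. All 5 Gimap genes kept, GTPases of lymphocytes and endothelium, were higher with a median of 0.64. Gimap6 was at 8.68 with IGFBP3 and 7.59 without. This family was singled out after its values were seen. T, B and NK cell markers passed the floor in 5 of 22 cases, of which 4 were lower, with a median of -0.52. Among them Cd3e (4.05 and 4.82) and Prf1 (4.46 and 4.98) were kept through their untreated values alone. Cd8a (4.72 and 4.58) was kept through its treated value alone. The floor thus fixed the direction of each, and the count says little about lymphocytes. Cytosolic ribosomal protein genes were higher in 24 of 30 cases (80.0%) with a median of 0.32, against 0.00 between the Id control hearts. Rpl8 was at 10.14 and 9.22 and Rpl7 at 9.49 and 8.58, while Rplp2 was lower at 5.46 and 6.24. Near-identical pseudogene copies make array values of ribosomal protein genes uncertain.

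The remaining genes at the top of the higher side belong to several processes. Akr1c14, an aldo-keto reductase that acts on steroids, was at 5.01 with IGFBP3 and 3.30 without, under the floor. Tdgf1, the Nodal co-receptor Cripto, was at 4.76 and 3.20, close to the floor even in the treated heart. Fap, a protease of activated fibroblasts, was at 5.36 and 4.201, and the axon guidance gene Sema3a at 5.77 and 4.63. The untreated values of Fap and Sema3a were under the floor. Stag2, a cohesin subunit, was at 7.12 and 5.90. Ankrd12 (1.48), the mismatch repair gene Pms2 (1.47), the zinc finger genes Zfp825 (1.31) and Zfp971 (1.27), Gmcl1 (1.27), Glrx3 (1.27), Odr4 (1.26), Hmcn1 (1.25), Rbm12b2 (1.23), Taf1d (1.17), Smarcad1 (1.15) and C1galt1c1 (1.14) completed the 20 furthest above the untreated heart, each with its log2 difference in brackets. Hmcn1 has 77 probe sets, Taf1d 9 and Zfp825 2. Their values here are those of the probe set highest on average. Taken as a family after their values were seen, Zfp genes had 6 members 2-fold higher and 1 lower among 202 kept, around a median of 0.08. Of all genes kept, 0.573% were 2-fold higher and 0.625% lower.

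Gene length moved with the sign of the difference. Split by the length of the gene in RefSeq into 5 bins of equal size, the genes kept had median differences of -0.14, -0.08, 0.03, 0.09 and 0.11 from the shortest bin to the longest. In the longest bin 14 genes were 2-fold higher and 1 was lower, and in the shortest bin 15 and 20. Between the 2 Id control hearts the bin medians lay between -0.01 and 0.02, and between Id cKO and WT they ran from -0.06 to 0.08. The part of length in the 2-fold genes was not tested.

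One heart muscle microRNA locus was 2-fold higher. Mir208a, which lies within the Myh6 gene, was at 6.46 with IGFBP3 and 5.20 without, and at 4.82 to 4.99 in the other 4 arrays on their own scale. Its host gene Myh6 differed by 0.10. The locus was named after its values were seen, since small RNAs were outside the rule for naming genes, and a probe set of this array reads the primary transcript and not the mature microRNA. Its mature products in RefSeq (GRCm38.p6, minus strand, miR-208a-3p at chr14:54949072-54949093 and miR-208a-5p at chr14:54949107-54949128) are shown 5′ to 3′ with the seed, bases 2 to 8, in capitals.
miR-208a-3p: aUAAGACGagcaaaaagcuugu
miR-208a-5p: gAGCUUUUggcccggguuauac
The 2 arms have different seeds. Over all 54 microRNA loci kept, 45 were lower and 8 higher, with a median of -0.23, so Mir208a ran against most loci. Of all genes kept 49.5% were lower. Genes with a mean level of 5 or less had a median of -0.16, and the bin of the shortest genes one of -0.14. The part of level and length in the microRNA count was not tested.

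Genes of heart muscle and of its energy metabolism were close together in the treated and untreated hearts. Cardiomyocyte markers had a median of 0.07 over 18 genes and sarcomere genes 0.17 over 27, with the Z-disc gene Myot the widest apart at 8.47 and 7.49. Fetal and stress genes of the heart, whose median was 1.00 between Id cKO and WT, had a median of -0.07 here over 21 genes. Nppa, which encodes atrial natriuretic peptide, was at 13.24 with IGFBP3 and 13.20 without, and Nppb, its B-type relative, was at 10.91 and 10.77. The slow myosin gene Myh7 was at 10.12 and 9.62. Oxidative phosphorylation genes were higher in 36 of 53 cases (67.9%, against 49.4% of all genes kept) by little (median 0.12). Fatty acid oxidation genes had a median of 0.08.

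The IGF axis, to which IGFBP3 belongs, was balanced with 11 of 20 genes higher, 9 lower and a median of 0.03. Igfbp4, another IGF binding protein, was at 8.35 in the treated and 9.33 in the untreated heart. Irs2, an adaptor of the insulin and IGF receptors, was at 5.58 and 6.55. Igfbp5 was on the other side at 9.03 and 8.54, and the ligand Igf1 was at 6.14 and 5.76. The receptor gene Igf1r differed by -0.16 and the ligand gene Igf2 by -0.04. Clock genes were lower in 15 of 20 cases (75.0%, against 49.5% of all genes kept) with a median of -0.10. Among them were Per1 at 7.03 and 7.99 and Nr1d1 at 7.77 and 8.71.

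**Figure D3:**
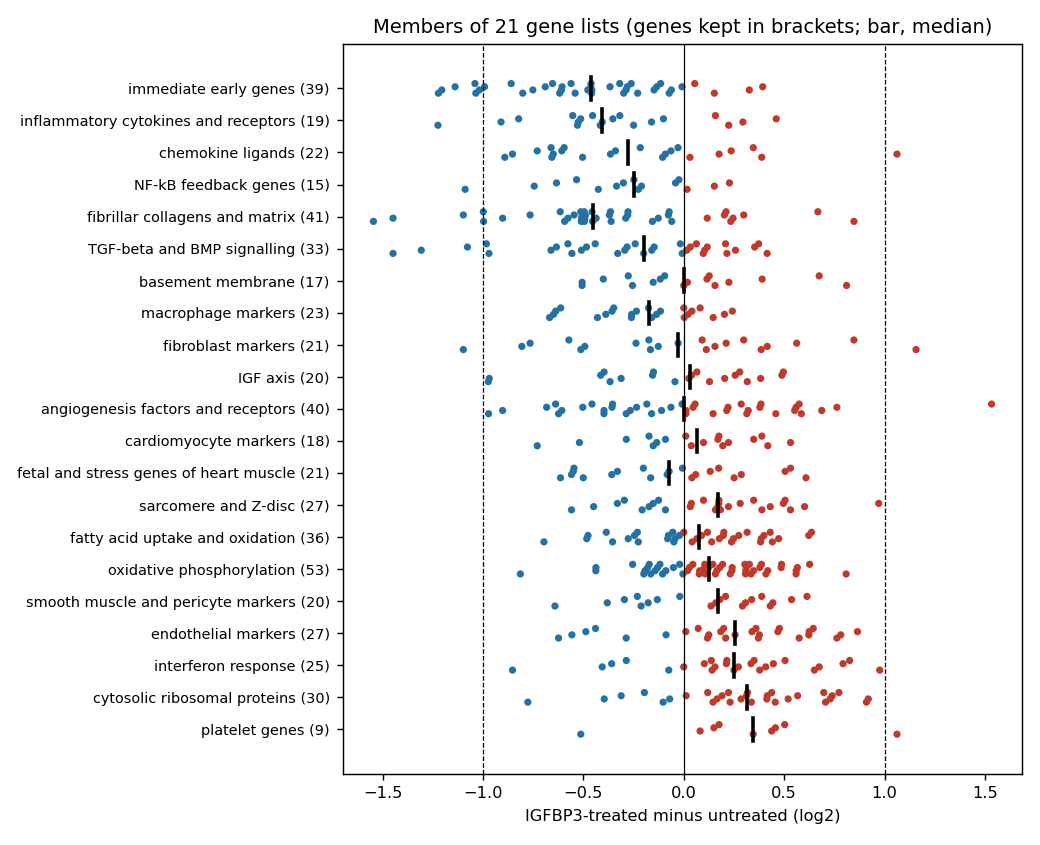
Difference between the treated and untreated Id cKO hearts (log2, horizontal) for each gene kept in 21 lists, 1 point per gene, with the list's median as a bar and the number of genes in brackets. The immediate early median lies at -0.46 and the matrix median at -0.45, while the endothelial, interferon and ribosomal medians lie between 0.25 and 0.32.

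A last comparison asked where the genes that set Id cKO apart from WT lay in the treated heart, using arrays that the treated and untreated hearts do not share. Between Id cKO and WT 253 of 11476 genes were at least 2-fold higher (2.20%) and 110 lower (0.959%). Of the 253, 245 were kept, and 125 of these were higher and 119 lower with IGFBP3, around a median of 0.02. By size, 8 were 2-fold lower (Sprr1a, Thbs4, Pmepa1, Ltbp2, Tgfb1, Efhd2, Col1a1 and Nr4a1) and 1 was 2-fold higher (Aspn). Among the 10887 genes compared in both pairs of hearts, 66 were 2-fold lower and 58 higher. At the 1.5-fold limit 27 of the 245 were lower (11.02%, against 6.14% of the 10887) and 23 higher (9.39%, against 6.96%). By sign, genes raised in Id cKO thus had no common direction in the treated heart. Those past the 2-fold limit were mostly lower. Igfbp3, Postn, Nppa and the kinase gene Nmrk2 (7.37 and 7.45) are examples that were nearly level.

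Of the 110 genes lower in Id cKO than in WT, 97 were kept, and 61 of these were higher with IGFBP3 (62.9%, against 50.3% of the 10887 genes compared in both). At the 1.5-fold limit 20 were higher (20.6%, against 6.96%) and none lower (0.00%, against 6.14%), and their median was 0.15. Angpt1, Ppbp, Amy1 and Etfbkmt were 2-fold higher, Angpt1 and Amy1 from untreated values under the floor, with Amy1 at 5.31 and 4.30 and Etfbkmt at 6.67 and 5.65. The methyltransferase gene Inmt was at 7.80 with IGFBP3 and 7.07 without, the proenkephalin gene Penk at 5.49 and 4.79, and the cytokine gene Il15 at 5.87 and 5.10. The set also holds the Y-linked Eif2s3y (7.07 and 6.20), Uty (6.27 and 5.52) and Kdm5d (5.77 and 5.19), because the Xist and Y-linked levels of WT and of the Id cKO heart differ, whereas the treated and untreated hearts both have the pattern of WT. All 7 sex-linked genes kept were higher in the treated heart, with a median of 0.58, and their part in the other differences was not tested. Under the stricter rule that Id cKO differ 2-fold from WT and from each Id control heart alike, 35 genes (0.305%) were lower in Id cKO. Of these 31 were kept, 19 were higher and 12 lower with IGFBP3, and 7 were 1.5-fold higher and none lower. For the 75 genes (0.654%) higher by that rule, 38 of 72 kept were higher and 34 lower.

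**Figure D4:**
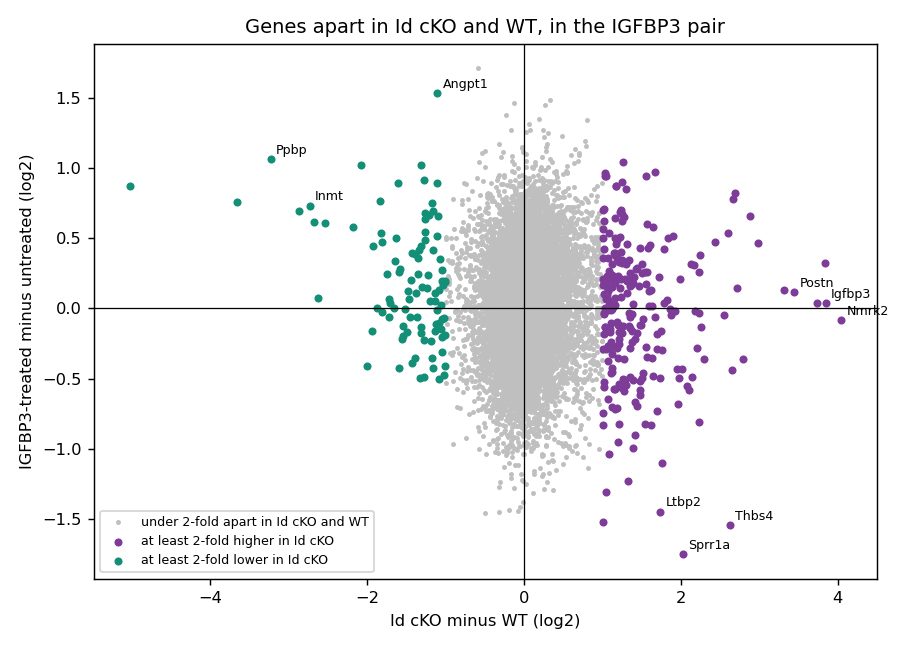
Difference between the treated and untreated Id cKO hearts (log2, vertical) against the difference between Id cKO and WT (log2, horizontal), 1 point per gene and 1 array per heart. Genes lower in Id cKO (green) lie above the zero line more often than below it, 61 against 35, and genes higher in Id cKO (purple) lie on both sides, 125 against 119.

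Near the limits of these counts, C1rl and Klhl33 (higher values 4.6998 and 4.6998) fell just short of the floor and Nkx2-1 (4.70001) and Gm45914 (4.7011) just passed it. At the 2-fold limit Clec1a (0.99) and Ifi203 (0.99) were just short of being counted as higher and Clk1 (1.002) and Gm10778 (1.004) were just counted. On the lower side Atf5 and Loxl1 (both -0.998) were just short, and Gga1 (-1.003) and Ubl7 (-1.004) were just counted. Under the floor, 21 of 8426 genes were 2-fold higher and 20 lower.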

How the data were processed

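RNA from 6 heart samples was measured on Affymetrix Mouse Gene 1.0 ST arrays, and 2 of them, 1 treated and 1 untreated, make the comparison. The deposited values are log2 expression levels of 35557 probe sets. The authors made them with RMA, which adjusts background, normalizes and combines the probes of a set, and with Affymetrix Expression Console, per the submitters' processing notes, which give no versions. The treated and untreated arrays lie on a lower scale than the other 4 and share 1586 exactly equal values, against at most 32 in any other pair of arrays.

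Probe sets with 1 gene symbol in the platform annotation gave 19938 genes. Where a gene had several probe sets (999 genes), the probe set highest on average was used. By Entrez identifier 19856 genes matched RefSeq (GRCm38.p6). Genes were kept where the higher value was at least 4.7; the other arrays were compared at a floor of 6. Differences were counted by size at 2-fold and 1.5-fold with Python 3.11.15, pandas 2.3.3 and numpy 2.4.6. With 1 array per group no test was fitted, and the number of arrays limits the precision. The counting was tested on simulated data.

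Named genes were the 20 furthest up and the 20 furthest down among those 2-fold apart, without predicted or clone-named loci and small RNAs, together with Id1, Id3, Igfbp3 and list members. The comparison and the 61 gene lists were chosen with earlier results of these data known. Of the lists, 58 had at least 3 genes kept, 6 had a median of at least 0.2 and 10 one of -0.2 or less. Alternatives were other floors, scalings, probe set rules and fold limits. All columns of the value table were matched to a sample.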

Additional observations from a re-analysis of the deposited data

Results flagged for a closer look

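The 12147 probe sets without a gene symbol, which name no gene and enter no comparison above, held 3938 that passed the floor of 4.7. Of these, 152 were at least 2-fold higher and 161 lower in the treated heart, together 313 or 7.95%. Among the probe sets with 1 symbol the share was 1.35% (171 of 12701), and among unnamed probe sets between Id control 1 and Id control 2 it was 2.02% (74 of 3661). What these probe sets read was not tested.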

How the results depend on the processing

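The 138 genes 2-fold apart became 1516 at a 1.5-fold limit and 2 at a 3-fold limit. The 66 higher genes became 784 and 1 at those limits, and the 72 lower genes became 732 and 1, and 47 with both array medians set equal. Median centring also moved the median difference of all genes kept to 0.06. Without a floor, the median of the inflammatory cytokine list was -0.30 in place of -0.41, and that of the chemokine list -0.11 in place of -0.28. Over the other floors, scalings and probe set rules the total of 2-fold genes ranged from 112 to 179, and no list whose median was 0.2 or more in size changed sign. No paired analysis was possible because the treated and untreated groups hold 1 array each and their labels give no replicate numbers. Taking the genes apart in Id cKO from both Id controls without WT, an alternative chosen after seeing the data, left the medians at 0.05 over 76 genes higher and 0.16 over 42 genes lower. With 1 array on each side, IGFBP3 and any other difference between the 2 samples cannot be told apart.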

Other observations

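Among list members not described above, Ankrd37, an ankyrin repeat gene of the hypoxia and glycolysis list, was at 6.64 in the treated and 5.53 in the untreated heart, 2.15-fold higher. Ramp2, of the angiogenesis list, which turns the calcitonin-like receptor into the adrenomedullin receptor of vessels, was at 8.55 and 9.52, just inside the 2-fold limit. The next 2 families were grouped after values were seen, and 49.4% of all genes kept were higher. Mitochondrial ribosomal protein genes were higher in 52 of 77 cases with a median of 0.16. Small nucleolar RNA loci were higher in 14 of 20 cases with a median of 0.19. These are values of 2 arrays and carry no test.

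The untreated heart was the more extreme one for the genes lower with IGFBP3. On the common scale, it lay above all 4 other arrays for 67 of the 72 genes (93.1%, against 37.4% of all genes kept), and the treated heart lay below all 4 for 40 (55.6%, against 36.4%). For the 66 genes higher with IGFBP3, the untreated heart lay below all 4 in 42 (63.6%, against 34.4%) and the treated heart above all 4 in 39 (59.1%, against 32.8%). Choosing genes by the difference partly fixes these positions, so they are a description.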
